A study of Mus musculus with 6 samples.

Results

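The MEF2 transcription factors and the class IIa histone deacetylases (HDACs) that repress them were followed across 6 bone marrow RNA-seq libraries. The set holds 8 of the 55487 genes in the table, the 4 MEF2 genes Mef2a, Mef2b, Mef2c and Mef2d and the 4 class IIa HDAC genes Hdac4, Hdac5, Hdac7 and Hdac9. It was chosen by gene name with the levels in these 6 libraries already known, so the levels of the 8 genes in PBS and pIpC libraries are given as a description, with no test. For every library, leukemic bone marrow cells of C57BL/6 Mx1-Cre Brd9fl/fl CD45.2+ donors carrying MLL-AF9, a fusion oncogene of acute myeloid leukemia, were injected into irradiated CD45.1+ CD45.2- recipients, 1000 cells each. Recipients then received 3 doses of PBS or of pIpC at 20 mg/kg, and GFP+ cells were taken from femora and tibiae at day 10, with 3 libraries per group. pIpC imitates viral double-stranded RNA, the interferon it raises switches on the Mx1 promoter, and the Cre made there is meant to delete the floxed part of Brd9, a subunit of a SWI/SNF chromatin remodelling complex.

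The PBS group carried the same floxed alleles, Cre transgene and oncogene, so all 6 libraries share them, and an effect of pIpC itself cannot be told apart from an effect of Brd9 deletion. The Mx1 promoter responds to interferon in many cell types. The age of the mice is not given in the labels, and the study describes c-Kit+ rather than GFP+ cells, stranded rather than unstranded libraries and a milder irradiation than the labels do. Nothing states that the libraries of a group came from separate animals, so p-values measure only the spread between these libraries, which may be technical.

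MEF2 proteins are MADS-box transcription factors that bind an AT-rich consensus and activate genes of muscle, neurons and blood cells. Class IIa HDACs have little deacetylase activity of their own, bind MEF2 on DNA and bring in the NCoR and SMRT corepressors with HDAC3. Kinases such as CaMK, PKD and SIK phosphorylate these HDACs, 14-3-3 proteins then carry them out of the nucleus, and MEF2 is released to activate its targets. In blood, MEF2C is known for its roles in B cell and myeloid development and for its expression in leukemias with MLL rearrangements.

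Because the results turn on Mef2c, which had almost no reads in PBS libraries, and on Mef2a and Hdac5, whose promoters hold a MEF2 consensus, their RefSeq promoter windows are shown first. Each window runs 5′ to 3′ on the gene's strand of GRCm38.p6, from 250 bases before a start site to 50 after it. Of 32851 such windows, 3.19% held the MEF2 consensus on either strand, and of the 14 windows of the 8 genes, 2 did, that of Mef2a (chr7:67372809-67373108, minus strand) and that of Hdac5 (chr11:102230123-102230422, minus strand). Capitals mark the consensus, which began 2 bases before the Mef2a start site and 20 bases before that of Hdac5.
Mef2a: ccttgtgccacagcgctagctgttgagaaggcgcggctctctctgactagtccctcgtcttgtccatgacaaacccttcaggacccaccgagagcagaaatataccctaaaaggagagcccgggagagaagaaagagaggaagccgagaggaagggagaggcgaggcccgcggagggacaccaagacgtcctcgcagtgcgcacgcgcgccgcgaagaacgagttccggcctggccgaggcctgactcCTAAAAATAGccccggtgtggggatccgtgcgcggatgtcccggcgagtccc
Hdac5: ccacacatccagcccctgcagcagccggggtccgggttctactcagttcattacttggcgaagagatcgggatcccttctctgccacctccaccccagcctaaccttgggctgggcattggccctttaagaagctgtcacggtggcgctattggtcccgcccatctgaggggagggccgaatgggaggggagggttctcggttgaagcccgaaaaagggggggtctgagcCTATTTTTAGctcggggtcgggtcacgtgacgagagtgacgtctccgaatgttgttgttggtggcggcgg
A match is a run of letters and not a measured binding site.

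Mef2c has 3 RefSeq windows, none with the MEF2 consensus, with a GC content of 35.7%, 47% and 48.3% against a median of 52.7% over all windows. GAGGAA, a core bound by PU.1, the myeloid and B lymphoid ETS factor, stood on either strand of the upstream 2 Mef2c windows, chr13:83503784-83504083 and chr13:83523406-83523705, both on the plus strand. It stood in 28.3% of all windows and in 6 of the 14 windows of the set, those of Mef2a, Mef2c, Hdac7 and Hdac9. Capitals mark it, 122 and 186 bases before the start sites.
Mef2c first window: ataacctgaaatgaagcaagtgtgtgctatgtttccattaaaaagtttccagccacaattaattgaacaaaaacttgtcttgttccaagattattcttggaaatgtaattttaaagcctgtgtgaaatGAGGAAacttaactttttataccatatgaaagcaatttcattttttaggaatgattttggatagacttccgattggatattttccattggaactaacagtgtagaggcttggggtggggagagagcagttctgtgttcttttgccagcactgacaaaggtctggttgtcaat
Mef2c second window: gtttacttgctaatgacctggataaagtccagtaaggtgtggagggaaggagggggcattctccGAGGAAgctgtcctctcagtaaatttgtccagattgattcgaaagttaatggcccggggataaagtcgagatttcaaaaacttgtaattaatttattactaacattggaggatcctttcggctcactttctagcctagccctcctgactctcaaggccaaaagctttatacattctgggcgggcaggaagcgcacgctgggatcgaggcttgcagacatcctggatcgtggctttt
AGATAA, the GATA factor motif, was found on either strand in 11.2% of all windows and in 1 of the 14, a window of Hdac7. No match of 1 of these motifs can hold a whole match of another.

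The targeted gene was checked first. Brd9 (chr13:73937811-73960895, plus strand) had 1927, 1946 and 1632 normalized counts in PBS replicates 1, 2 and 3, and 2036, 2263 and 2011 in those labelled pIpC. Each pIpC library was above each PBS library, against the direction that the label implies. The log2 fold change was 0.20 ± 0.13 (SE, n = 3 per group) with a limma adjusted p of 0.259, and the two-sided exact permutation p was 0.1, the smallest that 3 against 3 allows. Without PBS replicate 3 the log2 fold change was 0.12. Exons 4 to 6, the deleted part, make up 317 of 2430 bases (13.0%) of a Brd9 transcript of 16 exons, and a count over the whole gene says little of them. The group is therefore named by its label, as the libraries labelled pIpC.

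Depth was 19277439 to 22378154 reads on genes in PBS libraries and 22348517 to 23586722 in libraries labelled pIpC. PBS replicate 3 stood apart. Its chi-square statistic per gene against PBS replicate 1 was 216, and that between PBS replicates 1 and 2 was 6.83. Against the mean of the other PBS libraries it was lower by a median of 0.46 on the log2 scale over the third of genes with the most exonic bases, and higher by 0.61 over the third with the fewest. All 7 genes of the set that passed the filter on low values (10 normalized counts or more on average) are longer than the median of 3812 exonic bases, and PBS replicate 3 was the lowest PBS library for 6 of the 7. The values of the set and the counts of each list are therefore given with and without it.

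Of 15020 genes tested, 45.3% were called at an adjusted p under 0.1, 25% as higher under pIpC and 20.4% as lower, and in 56.8% the groups did not overlap. Under quantile normalization the median of all genes moved from 0.01 to -0.12 and the split from 3750 higher and 3058 lower to 3244 higher and 4078 lower. Of the 8 genes, 7 passed the filter. In these 7, the groups did not overlap for 5, with Mef2a, Mef2c, Hdac4 and Hdac7 higher and Hdac5 lower in the libraries labelled pIpC. Since the members were chosen on this comparison, nothing is read from the count.

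**Figure D1:**
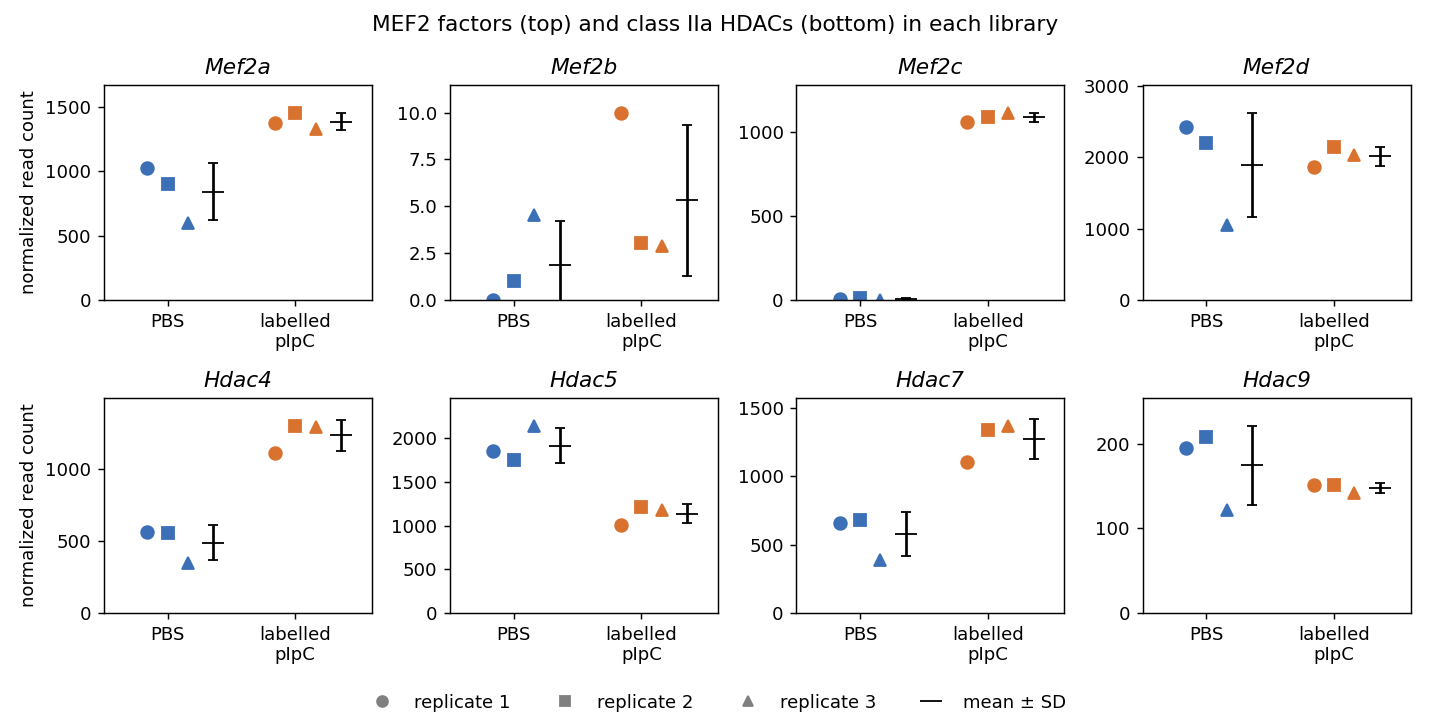
Normalized read count of each MEF2 factor (top) and class IIa HDAC (bottom) in each library, on linear axes that start at 0, with 3 PBS libraries in blue and 3 libraries labelled pIpC in orange, marker shapes for replicates and the mean ± SD in black. Mef2c goes from 1.13 to 11.1 in PBS to 1059 to 1111, Mef2a, Hdac4 and Hdac7 are above PBS in every library labelled pIpC, Hdac5 is below, and Mef2b, Mef2d and Hdac9 overlap.

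Among the MEF2 factors, Mef2c (chr13:83504034-83667080, plus strand, 31 annotated transcripts) changed most. It had 5, 11 and 1 reads in PBS replicates 1, 2 and 3, or 4.33, 11.1 and 1.13 normalized counts, and 1061, 1064 and 1149 reads in replicates 1, 2 and 3 labelled pIpC, or 1059, 1087 and 1111 normalized counts. It was barely detected in PBS libraries, and the libraries labelled pIpC lay close together, the highest being 1.05 times the lowest. The mean rose from 5.53 ± 5.11 to 1086 ± 26.1 normalized counts (SD, n = 3 each), a ratio of 196 and a log2 fold change of 7.72 ± 0.59 (SE). The PBS reads sum to 17, with an exact Poisson 95% interval of 9.90 to 27.2 that covers counting error only, and those labelled pIpC to 3274, with an interval of 3163 to 3388. Mef2c passed the filter through the libraries labelled pIpC alone. It was 1 of 32 genes that rose by at least this much, and without PBS replicate 3 its log2 fold change was 7.08.

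Mef2a (chr7:67231163-67372858, minus strand), a widely expressed member best known in heart muscle, had 1025, 905 and 599.8 normalized counts in PBS replicates 1, 2 and 3, and 1379, 1455 and 1327 in those labelled pIpC. The lowest library labelled pIpC was above the highest PBS library, and PBS replicate 3 was the lowest of all. The means were 843 ± 219 and 1387 ± 64.4, a ratio of 1.64 and a log2 fold change of 0.75 ± 0.21, or 0.52 without PBS replicate 3.

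Mef2d (chr3:88142372-88172086, plus strand), a fusion partner in some B cell leukemias, had 2415, 2192 and 1055 normalized counts in PBS replicates 1, 2 and 3, and 1862, 2136 and 2027 in those labelled pIpC. PBS replicate 3 alone was below the libraries labelled pIpC and the other PBS libraries were above them, so the groups overlapped. The means were 1887 ± 730 and 2009 ± 138, with a log2 fold change of 0.18 ± 0.31 that turned to -0.20 ± 0.08 without PBS replicate 3, where the groups no longer overlapped. An antisense gene, 1700113A16Rik, shares 531 bases (8.87%) of its exons, and unstranded reads there cannot be assigned.

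Mef2b (chr8:70139711-70167488, plus strand), the member known for germinal center B cells, was under the filter. It had 0, 1 and 4 reads in PBS replicates 1, 2 and 3, and 10, 3 and 3 in those labelled pIpC, so the groups overlapped. The sums were 5 reads (exact 95% interval 1.62 to 11.7) and 16 reads (9.15 to 26.0). These intervals cover counting error only, and with values this low and overlapping libraries no difference is read from the sums. It shares 62 exonic bases with Borcs8 on the same strand.

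Among the class IIa HDACs, Hdac4 (chr1:91928779-92195699, minus strand), known for its control of MEF2 in cartilage and muscle, had 562, 551 and 345 normalized counts in PBS replicates 1, 2 and 3, and 1108, 1297 and 1286 in those labelled pIpC. Every library labelled pIpC was above every PBS library. The means were 486 ± 122 and 1230 ± 106, a ratio of 2.53 and a log2 fold change of 1.37 ± 0.22, or 1.14 without PBS replicate 3. A lincRNA on the opposite strand, Gm26720, shares 3536 bases (22.4%) of the Hdac4 exons and was not analysed here.

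Hdac7 (chr15:97792664-97844502, minus strand), the class IIa HDAC best known in lymphoid and endothelial cells, had 655, 679 and 389 normalized counts in PBS replicates 1, 2 and 3, and 1103, 1339 and 1369 in those labelled pIpC. The groups did not overlap. The means were 574 ± 161 and 1271 ± 146, a ratio of 2.21 and a log2 fold change of 1.18 ± 0.24, or 0.92 without PBS replicate 3.

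Hdac5 (chr11:102194432-102230166, minus strand), known with Hdac9 as a brake on heart growth, went the other way. It had 1859, 1753 and 2143 normalized counts in PBS replicates 1, 2 and 3, and 1012, 1219 and 1179 in those labelled pIpC. Every library labelled pIpC was below every PBS library, and PBS replicate 3 was here the highest. The means were 1919 ± 202 and 1137 ± 110, so that PBS was 1.69 times higher, with a log2 fold change of -0.75 ± 0.14, or -0.67 without PBS replicate 3.

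Hdac9 (chr12:34047580-34917095, minus strand), which also encodes a short form without the catalytic domain, had 195, 207 and 121 normalized counts in PBS replicates 1, 2 and 3, and 151, 151 and 141 in those labelled pIpC. As for Mef2d, PBS replicate 3 was the lowest library and the other PBS libraries were the highest. The means were 174 ± 46.6 and 148 ± 5.65, with a log2 fold change of -0.20 ± 0.25, or -0.44 without PBS replicate 3, where the groups no longer overlapped.

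**Figure D2:**
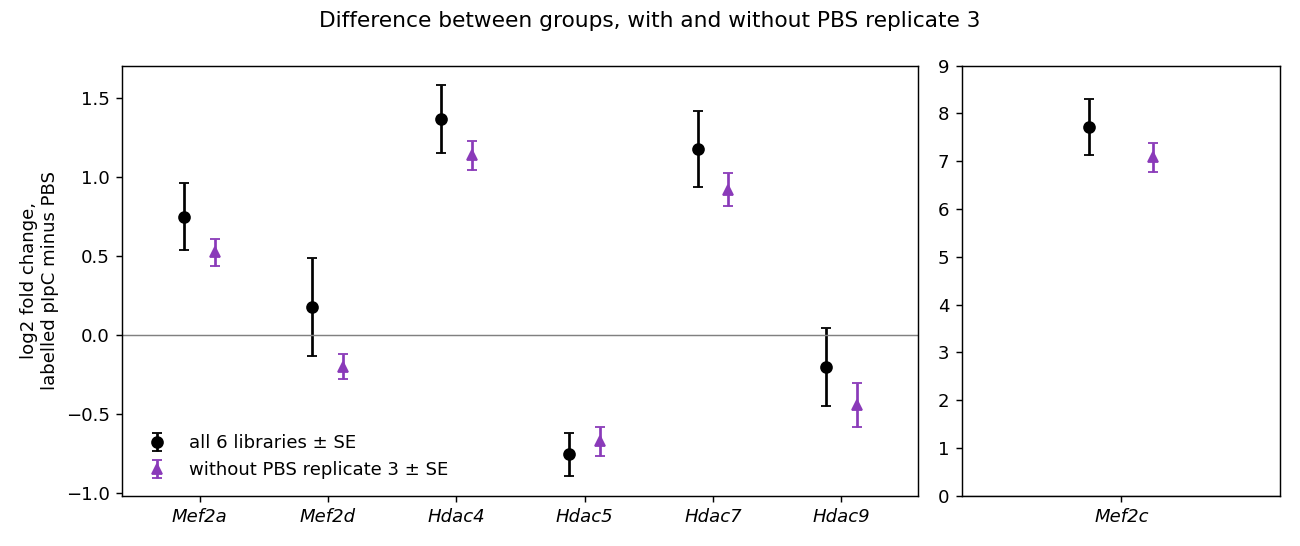
Log2 fold change, libraries labelled pIpC minus PBS, of the 7 genes that passed the filter, from all 6 libraries (black circles) and without PBS replicate 3 (purple triangles), with bars for the SE and Mef2c on an axis of its own. Mef2d crosses 0, from 0.18 to -0.20, and the other 6 genes keep their sign.

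Without PBS replicate 3 the groups of all 7 genes were apart, with 4 higher and 3 lower. So were those of 73.3% of all genes tested, against 56.8% with all 6 libraries. Fewer libraries are more easily apart, and the same share without another library was not computed. The sign of Mef2d therefore rested on a single library, while the signs of the other 6 genes were the same whichever library was left out. The size of the Mef2a change, however, depended on the processing. It was 0.75 on the log2 scale with all 6 libraries. With each library's trend over gene length removed, an alternative chosen after seeing the data, it was 0.38.

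Levels were compared between genes per 1000 exonic bases. In PBS libraries the order of the mean level per length was Mef2d at 315, Hdac5 at 219, Hdac7 at 85.0, Mef2a at 57.4, Hdac4 at 30.7, Hdac9 at 11.9, Mef2b at 1.32 and Mef2c at 0.35 normalized counts. Mef2d and Hdac5 overlapped in their libraries, as did Hdac7 and Mef2a, and Mef2b and Mef2c. In the libraries labelled pIpC it was Mef2d at 336, Hdac7 at 188, Hdac5 at 129, Mef2a at 94.5, Hdac4 at 77.8, Mef2c at 69.1, Hdac9 at 10.1 and Mef2b at 3.79, where only Hdac4 and Mef2c overlapped among neighbours. Mef2c thus moved from the last place to the sixth and Hdac7 from behind Hdac5 to ahead of it. Per base of the longest coding transcript, Hdac5 and not Mef2d was first in PBS libraries, Mef2a stood ahead of Hdac7 there, and in the libraries labelled pIpC Mef2a stood ahead of Hdac5 and Mef2c ahead of Hdac4.

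The make-up of each family shifted within its summed level per length. Mef2c was 0.06%, 0.17% and 0.03% of the MEF2 sum in PBS replicates 1, 2 and 3, and 14.1%, 13.1% and 14.1% in those labelled pIpC. Mef2d, the main MEF2 factor in all 6 libraries, was 85.2%, 85.3% and 80.0% of it in PBS libraries and 64.9%, 67.7% and 67.5% in those labelled pIpC. On the longest coding transcript the Mef2c share in the libraries labelled pIpC was 21.7% ± 0.79 (SD, n = 3) and that of Mef2d 46.5% ± 1.49. Hdac5 was 59.2%, 57.2% and 73.6% of the class IIa HDAC sum in PBS replicates 1, 2 and 3, and 32.1%, 32.3% and 31.4% in those labelled pIpC. Hdac7 took its place as the main class IIa HDAC, with 27.1%, 28.8% and 17.4% in PBS libraries and 45.5%, 46.2% and 47.4% in those labelled pIpC. The summed levels were as follows. The class IIa HDAC sum was 358, 349 and 332 normalized counts per 1000 exonic bases in PBS libraries and 359, 429 and 428 in those labelled pIpC. The MEF2 sum was 474, 429 and 220 across PBS replicates 1, 2 and 3 and 480, 527 and 502 in those labelled pIpC, so the low value was that of PBS replicate 3. On the longest coding transcript the MEF2 sum was 504 ± 173 in PBS libraries and 799 ± 32.2 in those labelled pIpC (mean ± SD). The ratio of the HDAC sum to the MEF2 sum was 0.76, 0.81 and 1.51 in PBS libraries and 0.75, 0.81 and 0.85 in those labelled pIpC, and the groups overlapped. On the longest coding transcript it was 0.999, 1.08 and 1.93 in PBS libraries and 0.812, 0.896 and 0.936 in those labelled pIpC, and the groups did not overlap, so the order of the ratio depends on the length used.

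**Figure D3:**
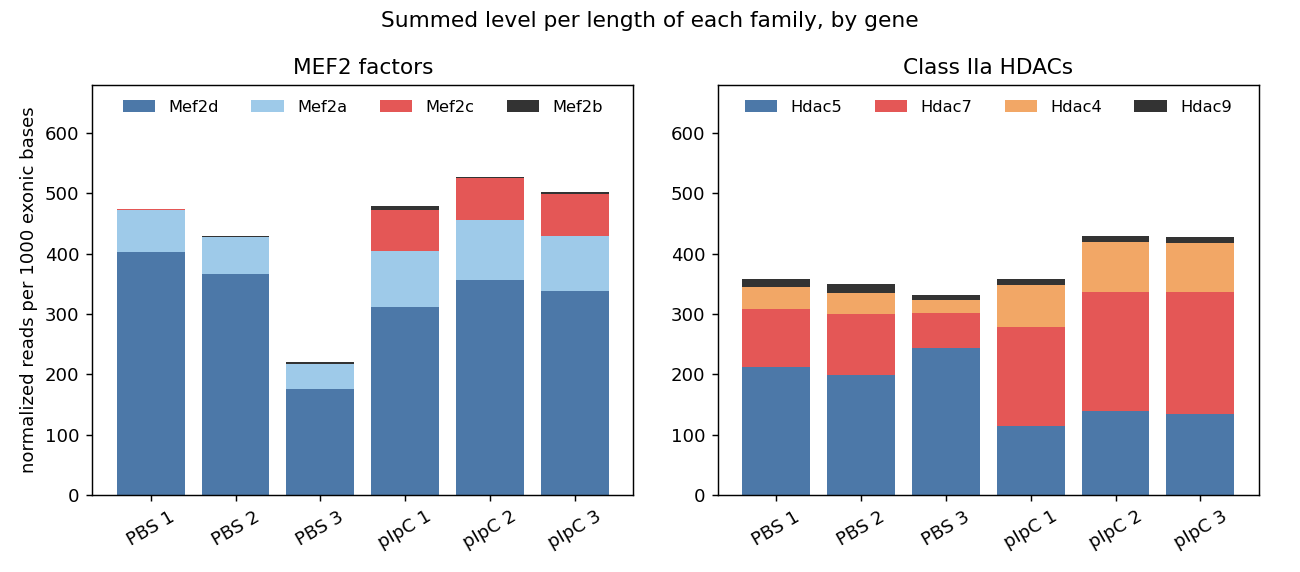
Summed level per length of the MEF2 factors (left) and class IIa HDACs (right) in each library, in normalized counts per 1000 exonic bases, with 3 PBS libraries and 3 libraries labelled pIpC (pIpC 1 to 3) as stacked bars that start at 0 and a colour for each gene. A band of Mef2c, 13.1% to 14.1% of the MEF2 bar, is visible in the libraries labelled pIpC alone, and Hdac7 overtakes Hdac5.

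The genes around the circuit were taken from 8 lists of 74 genes, of which 63 passed the filter. Of these, 16 rose and 11 fell at a limma adjusted p under 0.1, or 42.9% against the 45.3% over all genes, so the lists as a whole were called about as often as other genes. Without PBS replicate 3 the count was 42, or 66.7% against 65.1% over all genes, so the total again went with the share over all genes. Its split, 29 higher and 13 lower, leaned further to rises than that of all genes, 34.5% higher and 30.6% lower. Of the 63, 3 (Camk2d, Il7r and Arc) passed the filter through 1 group alone. Every gene named from these lists for its call with all 6 libraries was called in the same direction without PBS replicate 3. By list, 16.7% of the corepressor complex genes and 12.5% of the cofactors were called with all 6 libraries. The MAP kinases and the other zinc-dependent HDACs had 33.3% each. The lists were written with earlier results of these data known, and their counts are a description.

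Of the 18 genes on the list of HDAC export kinases, which holds upstream kinases as well, 15 passed the filter, and 5 were higher and 2 lower. That was 46.7% called, near the 45.3% of all genes. The median log2 fold change was 0.21 against 0.01 for all genes. Leaving out PBS replicate 3 gave 7 higher and 4 lower. Camk2d, the CaMKII delta kinase that phosphorylates HDAC4, rose from 3.41 ± 2.48 to 237 ± 10.96 normalized counts (log2 fold change 5.92 ± 0.45). It passed the filter through the libraries labelled pIpC alone, so nothing is read from its place in the count and it is given with no p. Sik1, a salt-inducible kinase, rose by 1.75 ± 0.32 (limma adjusted p 0.0059) and Prkd2, protein kinase D2, by 1.64 ± 0.12 (adjusted p 0.00011). Among the CaMKI genes on the list, both that passed the filter moved the other way, with Camk1 at -2.46 ± 0.31 (adjusted p 0.0011) and Camk1d at -2.24 ± 0.30 (adjusted p 0.0014). Camk1g, the other CaMKI gene on the list, had no read in PBS libraries and 1.996, 3.07 and 3.87 normalized counts in those labelled pIpC, under the filter. Sik1, Prkd2, Camk1 and Camk1d kept their direction and their call under every alternative run.

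Of the 7 14-3-3 genes, whose proteins hold phosphorylated HDACs in the cytoplasm, 3 were higher and none lower, with a median of 0.28. That was 42.9% called, near the 45.3% of all genes. Without PBS replicate 3, 4 were higher and none lower. Sfn, or 14-3-3 sigma, rose by 1.30 ± 0.38 on the log2 scale (limma adjusted p 0.038). Ywhab, 14-3-3 beta, rose by 0.45 ± 0.13 (adjusted p 0.036) and Ywhaz, 14-3-3 zeta, by 0.39 ± 0.13 (adjusted p 0.061). Both of the latter calls were lost with the replicate block and when any library other than PBS replicate 3 was left out (0.39 to 0.47 for Ywhab and 0.35 to 0.42 for Ywhaz), and that of Sfn was lost without PBS replicate 2 (1.05), pIpC replicate 2 (1.25) or pIpC replicate 3 (1.23). Of the 6 genes of the NCoR and SMRT complex that class IIa HDACs recruit, 1 was higher and none lower, with a median of 0.44. That gene, Tbl1xr1, encodes a subunit that exchanges corepressors for coactivators and went from 1183 ± 158 to 2251 ± 87.6 normalized counts (log2 fold change 0.94 ± 0.14, adjusted p 0.0022). Without PBS replicate 3, where 34.5% of all genes were called higher, 5 of the 6 were higher and none lower.

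Calcineurin, the phosphatase that activates MEF2 and NFAT, and the NFAT factors had 9 of 10 genes past the filter. Of these 3 were higher and 2 lower, with a median of 0.26, or 4 higher and 2 lower without PBS replicate 3. With all 6 libraries 55.6% were called, against 45.3% of all genes. Nfatc1 rose by 1.09 ± 0.26 (limma adjusted p 0.016), while the catalytic subunit gene Ppp3cc fell by 1.28 ± 0.18 (adjusted p 0.0017) and the calcineurin inhibitor gene Rcan1 fell by 0.90 ± 0.23 (adjusted p 0.022). Ppp3cb, another catalytic subunit, rose by 0.31 ± 0.12 (adjusted p 0.081) and Ppp3r1, the regulatory subunit, by 0.33 ± 0.11 (adjusted p 0.056), and both calls were lost with the replicate block and when most single libraries were left out (0.30 to 0.33 for Ppp3cb and 0.29 to 0.34 for Ppp3r1). Ppp3cb was also not called by edgeR (0.29), under quantile normalization (0.17) or with the length trend removed (0.071), nor Ppp3r1 under quantile normalization (0.20). Of the 6 MAP kinase genes that activate MEF2, 1 was higher and 1 lower with a median of 0.04, or 2 and 1 without PBS replicate 3. They are a kinase and its substrate, Map2k5 (MEK5) at -0.49 ± 0.14 (adjusted p 0.033) and Mapk7 (ERK5) at 0.66 ± 0.21 (adjusted p 0.046). Map2k5 was not called without pIpC replicate 1 (-0.47) or 2 (-0.47), nor Mapk7 without PBS replicate 2 (0.62), pIpC replicate 2 (0.52) or pIpC replicate 3 (0.62).

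Of the 8 coactivators and other cofactors, none was higher and 1 was lower, with a median of 0.12. It was Srf, the MADS-box factor related to MEF2, at -0.38 ± 0.12 (limma adjusted p 0.042), which was lost with the replicate block and without any library other than PBS replicate 3 (-0.41 to -0.32), as well as with the length trend removed (-0.26). Leaving out PBS replicate 3 gave 3 higher and 1 lower. Of the 6 other zinc-dependent HDACs, none was higher and 2 were lower, with a median of -0.28, or 1 and 2 without PBS replicate 3. They were Hdac6, a cytoplasmic tubulin deacetylase, at -0.53 ± 0.14 (adjusted p 0.022) and Hdac2, a class I enzyme, at -0.47 ± 0.16 (adjusted p 0.062), which was not called with the replicate block or without pIpC replicate 2 (-0.39) or 3 (-0.46).

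Of 13 genes known as MEF2 targets in muscle, neurons or blood, 7 were under the filter. Of the other 6, 3 rose and 3 fell, and their median log2 fold change was -0.79, with the same counts without PBS replicate 3. All 6 were called, where 45.3% of all genes tested were, but nothing is read from that count. Arc and Il7r passed the filter only through the group in which they are high, so they are given with no p. Jun, an immediate early gene with a MEF2 site in its promoter, went from 9214 ± 2785 to 1372 ± 202 normalized counts (log2 fold change -2.71 ± 0.25, limma adjusted p 0.00028). Klf2, a target of the ERK5 and MEF2 pathway, went from 3974 ± 312 to 686 ± 69.4 (-2.53 ± 0.13, adjusted p 3.5e-05), and Arc, the activity-regulated gene of neurons, from 34.5 ± 10.0 to 2.96 ± 1.68 (-3.24 ± 0.49). Il7r, the interleukin 7 receptor of lymphoid progenitors, rose from 6.55 ± 1.38 to 90.7 ± 37.7 (3.52 ± 0.42). Klf4 rose by 1.28 ± 0.35 (adjusted p 0.029, not called without pIpC replicate 1 at 1.21) and Nr4a1, an orphan nuclear receptor under HDAC7 and MEF2D in thymocytes, by 0.95 ± 0.25 (adjusted p 0.025). A rise of Mef2c thus stood beside falls of Jun, Klf2 and Arc and rises of Il7r, Klf4 and Nr4a1.

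**Figure D4:**
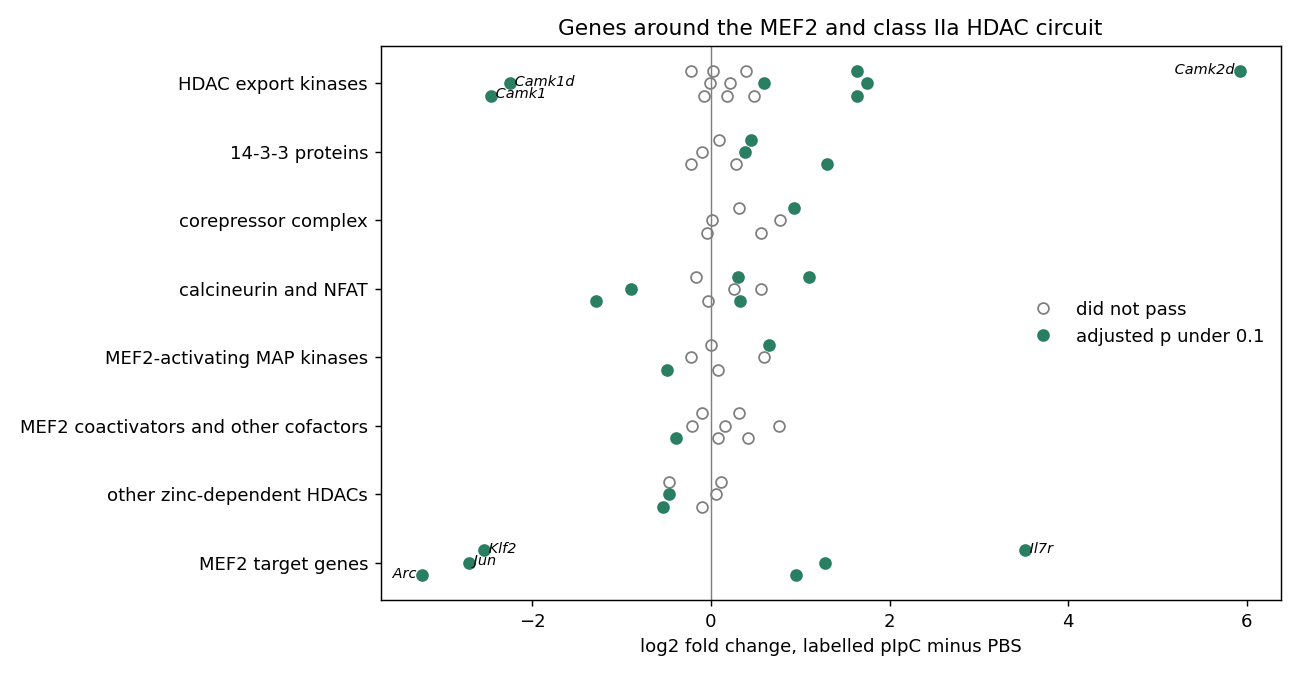
Log2 fold change, libraries labelled pIpC minus PBS, of the 63 genes that passed the filter in 8 lists around the MEF2 and class IIa HDAC circuit, 1 point per gene from 3 libraries per group, green where the limma adjusted p was under 0.1 and open otherwise, with names where a called change was over 2 in size. Most points lie near 0, and the widest spread is among the HDAC export kinases, from -2.46 to 5.92, and the MEF2 targets, from -3.24 to 3.52.

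The cell type markers moved with the group as well, and in bulk RNA fewer cells of a type and less RNA per cell cannot be told apart. Many markers passed the filter through the libraries labelled pIpC alone, 6 of the B cell, 3 of the megakaryocyte, 4 of the T and NK cell, 1 of the leukemia and 2 of the stromal list, so their counts are a description. Over all genes tested, 25% were called higher and 20.4% lower. B cell markers, of a lineage that expresses Mef2c and Mef2b, were called higher for 8 of 8, and their summed level went from 138 to 306 normalized counts in PBS libraries to 1367 to 2359 in those labelled pIpC, with Ms4a1 at 0 in every PBS library. Their lowest gene by fold change was Cd79b, at 1.25 ± 0.29, and the highest was Pax5, the B cell commitment factor, from 0.29 ± 0.50 to 218 ± 75.8 normalized counts. Megakaryocyte and platelet markers were higher for 7 of 7, from 401 to 562 up to 1678 to 2492, with Ppbp and Gp1bb at 0 in PBS libraries, and ran from Itga2b at 1.08 ± 0.21 to Ppbp, the platelet chemokine, at 313 ± 53.9 normalized counts in the libraries labelled pIpC. Within the libraries labelled pIpC, the B cell sum differed 1.72-fold and the megakaryocyte sum 1.49-fold between the highest and the lowest, where Mef2c differed 1.05-fold. By library, Cd79b made up 18.4% to 84.6% of the B cell sum and Itga2b 37.8% to 87.5% of the megakaryocyte sum.

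Neutrophil markers were higher for 8 of 8 and their sum went from 10299 to 23042 up to 1384230 to 1396290, with Camp, an antimicrobial peptide gene, at 5.07 ± 0.35 and Ly6g, the neutrophil surface marker, at 8.23 ± 0.78. In the libraries labelled pIpC this sum varied 1.01-fold. T and NK cell markers were higher for 5 of 5, summed from 177 to 318 up to 3908 to 4526, between Cd2 at 2.68 ± 0.42 and Ncr1 at 4.79 ± 0.47, but 1 gene, Nkg7, a cytotoxic granule gene, made up 90.8% to 95.9% of that sum in each library.

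Monocyte and macrophage markers were mixed, with 4 higher and 3 lower of 8, a sum of 12626 to 16768 in PBS libraries and of 8146 to 9508 in those labelled pIpC, Adgre1 (F4/80) at -3.80 ± 0.14 and Mrc1 (CD206) at 4.55 ± 0.35. Markers of MLL-AF9 leukemia were lower for 4 and higher for 1 of 6, from 32334 to 40305 down to 13386 to 14062, with Hoxa10 at -6.38 ± 0.24 and Mecom from 0.29 ± 0.50 to 39.9 ± 3.54 normalized counts. Stromal and endothelial markers were higher for 4 and lower for none of 6, summed at 1321 to 2341 and at 1817 to 2086, with Lepr at 3.68 ± 0.68 and Pecam1 at -0.54 ± 0.22, which was called only without PBS replicate 3 among the libraries left out (-0.73). Pecam1 made up 51.6% to 90.6% of the stromal sum by library. Myb made up 54.8% to 66.0% of the leukemia sum and Vcam1 47.2% to 59.5% of the monocyte and macrophage sum. Without PBS replicate 3 the leukemia list had 1 higher and 5 lower and the stromal list 4 higher and 1 lower, and the counts of the other lists given did not change. The part of any cell type in the levels of Mef2c and of the other 7 genes was not tested.

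**Figure D5:**
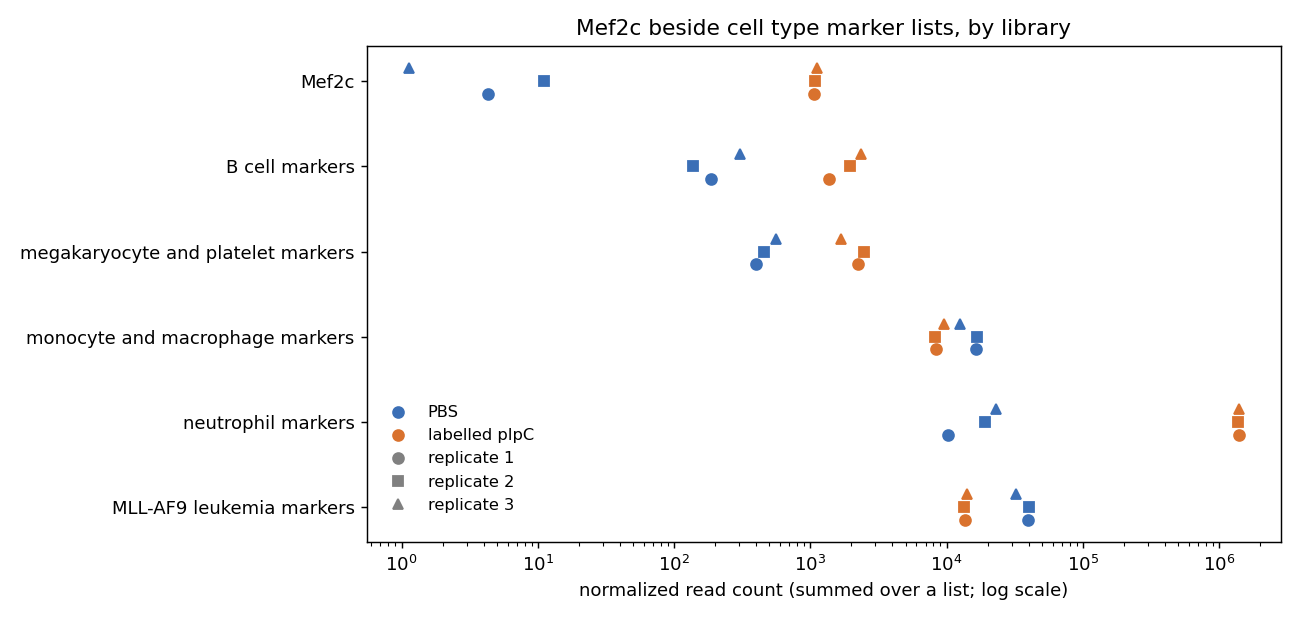
Normalized read count of Mef2c and summed counts of 5 marker lists in each library, on a log axis, with 3 PBS libraries in blue and 3 libraries labelled pIpC in orange and marker shapes for replicates. Mef2c, B cell, megakaryocyte and neutrophil sums are higher in every library labelled pIpC, and the monocyte and leukemia sums are lower.

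The genes whose pattern over the 6 libraries was nearest to that of Mef2c were Inhba, a subunit gene of activin, Ermap, an erythroid membrane protein gene, and Cmah, an enzyme gene of sialic acid synthesis, among 10486 genes that averaged 100 normalized counts or more. The Euclidean distances of their centred log2 values were 0.76, 0.79 and 0.82. Their log2 fold changes were 7.93, 7.94 and 7.77, beside 7.72 for Mef2c. The nearest to Hdac5, which fell most, were 3000002C10Rik, Tnip1, an inhibitor of NF-kappaB signalling, and Cyp4f13, a cytochrome P450 gene, at distances of 0.076, 0.16 and 0.16 and with log2 fold changes of -0.72, -0.73 and -0.77.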

How the data were processed

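Per the labels, RNA of GFP+ bone marrow cells was sequenced in 6 libraries, 3 PBS and 3 pIpC. The authors deposited a table of normalized counts for 55487 genes, treated here as a signal, with 1 size factor per library. Divided by that factor, 100% of values came out whole within 0.001 reads, which gave the reads. The sources differ on the pipeline: the study's methods name STAR and RSEM, and the submitters' processing notes name HISAT2 2.2.1, SAMtools, featureCounts and edgeR on GRCm38. Precision rests on the reads given above.

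All genes that averaged 10 normalized counts or more were tested with limma 3.58.1 (R 4.3.3, intensity trend) on log2(normalized count + 1), which understates changes of low genes, with no replicate block, at a Benjamini-Hochberg adjusted p under 0.1 (limma called 6808 genes). On the recovered reads edgeR 4.0.16 called 6901 and DESeq2 1.42.0 called 7451. The alternatives tried were pseudocounts, filters, normalizations, each library left out, a replicate block, no intensity trend and a stricter threshold. Removal of each library's length trend was chosen after seeing the data. Same-numbered libraries' deviations from their group mean correlated at -0.12, 0.14 and 0.041. Since PBS replicate 3 stood far apart in its group, these values cannot decide whether the numbers paired libraries.

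The members and lists were chosen with earlier results of these data known. The genes named were the 8 members, Brd9, in each pathway list every called gene (if over 6, the 3 largest rises and falls), in each marker list reported the highest and lowest gene by fold change, and the 3 genes nearest in pattern to the members with the largest rise and fall. In most marker lists the gene with the largest part of the sum was named too. Further genes in the closing section were chosen after their values were seen. The list of erythroid markers is not reported here. Positions and exonic lengths came from GENCODE M21 on GRCm38 and promoter windows from RefSeq. Values per exon were not analysed here.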

Additional observations from a re-analysis of the deposited data

How the results depend on the processing

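Leaving out each library in turn gave log2 fold changes of 0.52 to 0.91 for Mef2a, 7.08 to 8.33 for Mef2c, -0.20 to 0.40 for Mef2d, 1.14 to 1.49 for Hdac4, -0.82 to -0.67 for Hdac5, 0.92 to 1.32 for Hdac7 and -0.44 to -0.06 for Hdac9. Mef2d reversed, to -0.20, without PBS replicate 3, and the cause was not tested. The count of pathway list genes called, 27, ranged from 18 to 42, the highest again without PBS replicate 3. A pseudocount of 10 gave 6.19 for Mef2c, since it weighs on its low PBS counts. With each library's length trend removed, Mef2a was 0.38, Hdac4 0.97, Hdac5 -0.99 and Hdac9 -0.58, each with the sign of the main value. The calls over all genes ran from 4650 (without pIpC replicate 2) to 9783 (without PBS replicate 3), and were 5367 at an adjusted p under 0.05. The replicate block gave 6095 calls over all genes and 21 in the lists, where it took the calls of Ywhab, Ywhaz, Ppp3cb, Ppp3r1, Srf and Hdac2. Whether the replicate numbers paired libraries is not known. Of 858 comparisons over 48 other genes followed, 794 kept their side of the threshold, 58 lost it, 6 passed it (all Pecam1) and 0 reversed. Mef2b was under the filter, with 0 to 10 reads per library, and no difference is read for it.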

Other observations

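Genes of the circuit in which PBS replicate 3 stood apart from the other PBS libraries are given as values, chosen after they were seen. Ncor1, the NCoR corepressor that class IIa HDACs recruit, had 6385, 6586 and 2272 normalized counts in PBS replicates 1, 2 and 3, and 7265, 8496 and 7739 in those labelled pIpC. Sik2, a salt-inducible kinase, had 899, 962 and 121 in PBS libraries and 517, 552 and 575 in those labelled pIpC, so that PBS replicate 3 was the lowest library and the others the highest. Ep300, the p300 acetyltransferase that MEF2 recruits, had 3314, 2875 and 1161 in PBS libraries and 3290, 4366 and 3771 in those labelled pIpC. Hdac3, the active deacetylase of the corepressor complex, went the other way, with 1400, 1368 and 2029 in PBS libraries and 1588, 1598 and 1583 in those labelled pIpC. None of the 4 was called with all 6 libraries. Without PBS replicate 3 all 4 were called, as were 65.1% of all genes. Their log2 fold changes there were 0.27 for Ncor1, -0.76 for Sik2, 0.29 for Ep300 and 0.20 for Hdac3. With all 6 libraries that of Sik2 was 0.21, so its sign turned.

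In the libraries labelled pIpC, Camk2b varied most among the export kinases past the filter, with 10.98, 90.9 and 22.2 normalized counts in replicates 1, 2 and 3, against 37.2, 28.3 and 26.0 in PBS libraries.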
